A study of Mus musculus with 4 samples.

Results

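The MYC, MAX and MXD network was followed through 10 genes in mouse acute myeloid leukemia cells, taken from the expression table by exact gene symbol. They were Myc, Mycn, Mycl, Max, Mxd1, Mxd3, Mxd4, Mxi1, Mnt and Mlx, 10 of the 24497 mouse entries in the table. RNA-seq had been made from 4 libraries of cultured leukemic cells. Of these, 2 were labelled Tet2 knockout, from bone marrow hematopoietic stem cells of Tet2-/- mice lacking exons 8 to 10. The other 2 were WT, from stem cells of wild-type mice. All 4 cultures carried NRAS and AE9a, a shortened AML1-ETO fusion protein with which mice develop acute myeloid leukemia. The RPMI medium of all cultures held the cytokines SCF (50 ng/ml), IL-3 (10 ng/ml) and IL-6 (10 ng/ml) and the selection agents puromycin (2 µg/ml) and G418 (1 mg/ml). No other treatment is named. The labels do not say whether replicates came from separate mice, clones or cultures, so the spread behind each p-value may be technical. The comparison asks how the transcripts of this network differ with the Tet2 label.

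MYC, MYCN and MYCL are transcription factors that bind DNA only as heterodimers with MAX, mostly at the E-box sequence CACGTG, and activate genes of growth, ribosome production and metabolism. MXD1, MXI1 (also called MXD2), MXD3, MXD4 and MNT compete for the same partner and the same sites, and recruit SIN3 and histone deacetylases to repress transcription. MLX is a MAX-like partner that pairs with the nutrient-sensing factors MondoA and ChREBP and also with some MXD proteins. In the myeloid lineage, MYC is known for driving the growth of progenitors, and MXD1 for rising as granulocytes mature.

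In the knockout-labelled cells, Mycn and Myc rose, Mxi1 fell, and the other 6 tested members did not pass the test. Mycn was about 3 times its WT level (ratio of means 2.97) but stayed a minor transcript. Myc, the most abundant member, was 17.9% higher, and Mxi1 was 16.1% lower. Each call was made at an adjusted p under 0.05 in limma over 11837 entries, of which 30.5% were called in either direction, 18.9% higher and 11.6% lower. Of the 9 tested members 33.3% were called, 22.2% higher and 11.1% lower, so the share of called members was near that of all genes. The groups did not overlap in 6 of the 9 (66.7%), against 68.6% of all entries tested. Mycl stayed below the filter of at least 1 TPM in at least 2 libraries.

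Start sites of the 9 members other than Myc were read from RefSeq (GRCm38.p6), as windows of 300 bases that run from 250 before the start to 50 after it. The windows of the called members Mycn and Mxi1 are shown to set them beside those that hold the network's own binding sequence. In Mycn the capitals mark TTTGGCGC, an E2F-type sequence, searched on both strands. It stood in 1.01% of the 11489 windows of tested genes, and in no other window of a network member.
Mycn start, chr12:12941787-12942086, minus strand: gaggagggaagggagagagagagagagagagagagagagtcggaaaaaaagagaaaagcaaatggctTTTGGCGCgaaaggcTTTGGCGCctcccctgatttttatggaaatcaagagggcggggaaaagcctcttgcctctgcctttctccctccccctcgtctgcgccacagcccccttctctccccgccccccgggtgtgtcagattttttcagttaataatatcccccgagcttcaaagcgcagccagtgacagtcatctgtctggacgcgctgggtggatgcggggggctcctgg
The 2 copies began 183 and 168 bases before the start. Mxi1 has 3 windows, of which the one at the lowest coordinates follows, with GGGCGG (the GC box, in 61.8% of the windows of tested genes, both strands) in capitals. This window holds 1 GC box and the other 2 Mxi1 windows 4 each. The Mycn window holds 2, left in small letters above. In all, 7 of the 9 genes have a GC box in a window.
Mxi1 start, chr19:53310256-53310555, plus strand: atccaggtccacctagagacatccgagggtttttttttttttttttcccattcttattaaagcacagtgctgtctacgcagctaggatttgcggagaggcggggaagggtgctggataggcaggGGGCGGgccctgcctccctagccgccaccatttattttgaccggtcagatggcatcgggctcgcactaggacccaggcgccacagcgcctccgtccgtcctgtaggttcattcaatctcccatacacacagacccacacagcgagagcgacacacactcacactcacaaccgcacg

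The E-box CACGTG, which reads the same on both strands, was held by the windows of 4 of the 9 genes, Max, Mlx, Mnt and Mxd4, and by 10.1% of the windows of tested genes. Stretches of 30 bases around it are given with the E-box in capitals.
Max, chr12:76962234-76962263, minus strand: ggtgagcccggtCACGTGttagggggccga
Mlx, chr11:101087238-101087267, plus strand: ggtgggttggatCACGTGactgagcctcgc
Mnt, chr11:74830789-74830818, plus strand: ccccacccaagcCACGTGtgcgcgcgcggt
Mxd4, chr5:34187912-34187941, minus strand: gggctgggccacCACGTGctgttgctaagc
None of these 4 genes passed the test. Neither the Mycn window nor any of the 3 Mxi1 windows holds CACGTG, which says only that these letters are not in these stretches. The Mycn window held 14 CpG dinucleotides, the fewest among the members' windows. The 3 Mxi1 windows held 17, 21 and 49, the other members' 18 to 39, and the windows of tested genes a median of 20.

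**Figure D1:**
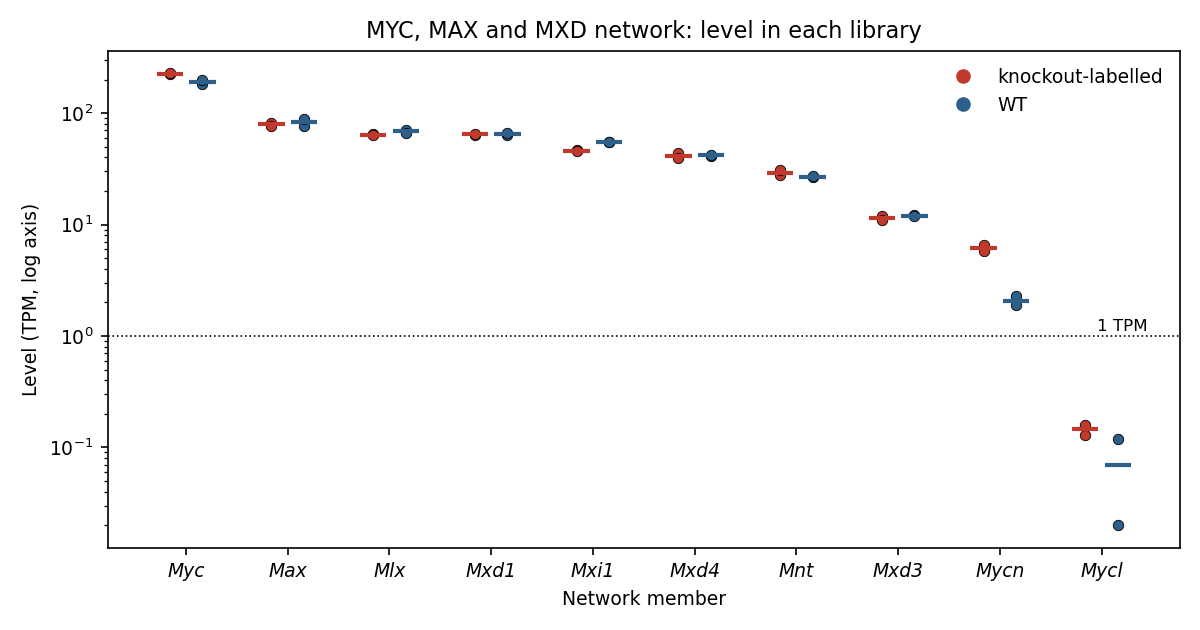
Level of each network member in TPM on a log axis, with knockout-labelled libraries in red and WT libraries in blue, points for libraries and bars for the mean of 2. Members are ordered by their mean over the 4 libraries. Myc lies near 200 TPM, Mycn is the member whose groups lie furthest apart among those above the dotted line at 1 TPM, and Mycl lies below it.

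Among the activators, Mycn encodes N-MYC, which takes the place of c-MYC in some embryonic and neural tissues and is also expressed in hematopoietic stem cells. It had 6.55 and 5.79 TPM in the knockout-labelled libraries, against 1.88 and 2.28 TPM in WT. Both knockout-labelled values lay above both WT values. The means were 6.17 ± 0.54 TPM in knockout-labelled cells and 2.08 ± 0.28 TPM in WT cells (SD, n = 2 each). The log2 difference was 1.22 (SE 0.11, adjusted p = 0.0017), and it passed under all 15 alternative settings tried, of which the filter at 5 TPM kept it through the knockout-labelled libraries alone. On this log2(TPM + 1) scale the size of a change in a low gene depends on the pseudocount, and it was 0.66 with a pseudocount of 5. In GRCm38, Mycn occupies bases 12936093 to 12941914 of chromosome 12 on the minus strand.

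Myc encodes c-MYC, the main MYC protein of dividing hematopoietic progenitors. It had 223 and 228 TPM in the knockout-labelled libraries, against 184 and 198 TPM in WT. The groups did not overlap, and the gap between them was larger than the spread within either. The means were 225 ± 3.66 TPM in knockout-labelled cells and 191 ± 9.64 TPM in WT cells (SD, n = 2 each), with a log2 difference of 0.24 (SE 0.044, adjusted p = 0.014). The call was lost with spike-in scaling (0.12, adjusted p = 0.27), without knockout-labelled replicate 1 (0.25, adjusted p = 0.083) and without knockout-labelled replicate 2 (0.22, adjusted p = 0.11). Relative to the median of all tested genes, the Myc difference was 0.20 as deposited and 0.19 with spike-in scaling, since that scaling lowered the median itself to -0.07, against 0.04 as deposited. Its gene occupies bases 61985391 to 61990374 of chromosome 15 on the plus strand.

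Mycl, which encodes L-MYC, was listed at 0.13 and 0.16 TPM in the knockout-labelled libraries and at 0.02 and 0.12 TPM in WT. These levels are too low for the test as filtered. With no filter, its log2 difference was 0.10 (adjusted p = 0.36). Myc thus held most of the transcripts of the MYC paralogs in every library. Mycn made up 2.86% and 2.48% of their summed TPM in knockout-labelled cells, against 1.01% and 1.14% in WT.

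MAX, the shared partner of the network, was encoded by the most abundant member after Myc. Max had 80.9 and 77.5 TPM in the knockout-labelled libraries, against 77.0 and 89.4 TPM in WT. Both knockout-labelled values lay inside the WT range. The log2 difference was -0.07 (SE 0.074, adjusted p = 0.54), with a 95% interval of -0.25 to 0.12. That interval includes 0, so these libraries leave a difference of either sign within it possible. Myc was 2.75 and 2.94 times as abundant as Max in knockout-labelled cells, and 2.39 and 2.21 times in WT.

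**Figure D2:**
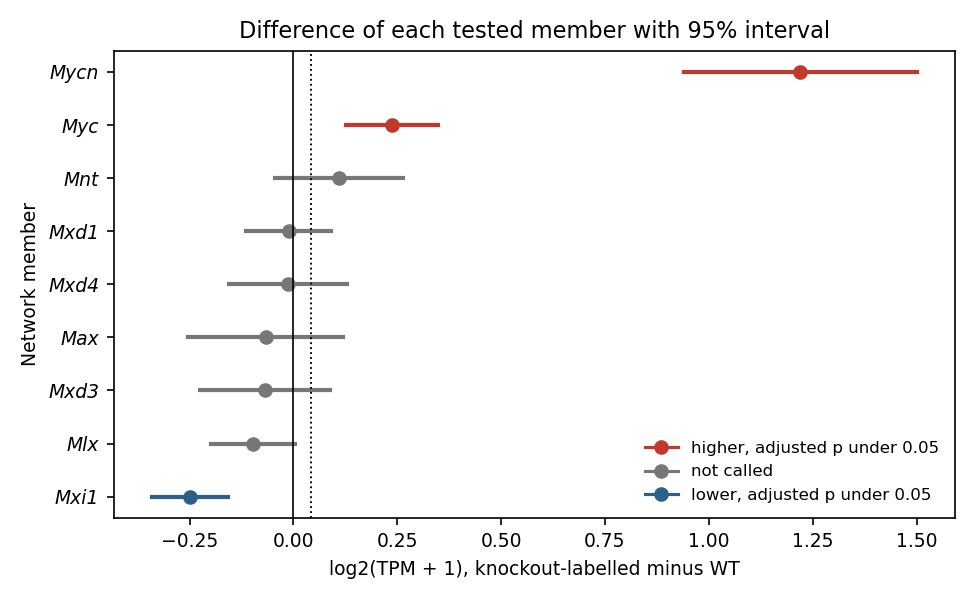
Log2 difference of each tested member, knockout-labelled minus WT, with its 95% interval from limma. The solid line marks 0 and the dotted line the median of all tested genes (0.04). Mycn (1.22) and Myc (0.24) lie right of both lines, Mxi1 (-0.25) left of both, and the intervals of the other 6 members include 0.

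Among the repressors, Mxi1 was the member that changed. MXI1 antagonises MYC by occupying MAX and recruiting SIN3. It had 46.4 and 45.9 TPM in the knockout-labelled libraries, against 55.0 and 55.1 TPM in WT. Replicates lay within 1 TPM of each other in both groups, and the groups were about 9 TPM apart, with means of 46.2 ± 0.40 TPM in knockout-labelled cells and 55.0 ± 0.12 TPM in WT cells (SD, n = 2 each). The log2 difference was -0.25 (SE 0.037, adjusted p = 0.0068). Its size ranged from -0.36 to -0.23 over the 15 alternative settings. The call was lost without knockout-labelled replicate 1 (adjusted p = 0.059) and without knockout-labelled replicate 2 (adjusted p = 0.066). The gene occupies bases 53310518 to 53375810 of chromosome 19 on the plus strand, and its value covers transcripts from all of its start sites.

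Mxd1, the repressor known for rising in maturing granulocytes, had 64.0 and 64.8 TPM in the knockout-labelled libraries, against 63.3 and 66.6 TPM in WT. Both knockout-labelled values were within the WT range. The log2 difference was -0.01 (SE 0.041, adjusted p = 0.85), with a 95% interval of -0.11 to 0.09. In the same libraries 23 of 25 granulocyte maturation markers fell and 1 rose. Their summed level was 25460 to 25774 TPM in knockout-labelled cells, against 49690 to 50301 TPM in WT. None of the 25 was at 0 in every library. In bulk RNA, fewer cells of a type and less RNA per cell cannot be told apart. The part of these markers in the network's differences was not tested.

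Mxd4, which encodes a repressor linked to cells leaving the cycle, had 43.5 and 39.3 TPM in the knockout-labelled libraries and 41.5 and 42.0 TPM in WT. Its groups overlapped (log2 difference -0.01, 95% interval -0.16 to 0.13, adjusted p = 0.88). Mxd3, which encodes the MXD protein of proliferating cells, had 11.9 and 11.0 TPM in knockout-labelled libraries, against 12.1 and 11.9 TPM in WT, and did not pass (-0.07, 95% interval -0.23 to 0.09, adjusted p = 0.45). The 3' end of Mxd3 overlaps 105 bases of Prelid1 on the other strand, and Prelid1 had 769 and 778 TPM in knockout-labelled libraries and 765 and 750 TPM in WT. The library kit marks strand, but the strand setting of the counting is not given in the sources used here, so the low Mxd3 value is uncertain. Mnt, which encodes a broadly expressed MYC antagonist, had 27.6 and 30.6 TPM in knockout-labelled libraries, against 26.6 and 27.2 TPM in WT. The groups were apart by less than the spread within the knockout-labelled pair, and Mnt did not pass (0.11, 95% interval -0.04 to 0.26, adjusted p = 0.23).

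Mlx had 64.5 and 63.4 TPM in the knockout-labelled libraries, against 70.0 and 66.9 TPM in WT. The knockout-labelled values were the lower ones, and the difference did not pass (-0.10, SE 0.040, adjusted p = 0.13). Its 3' end shares 385 bases with Psmc3ip on the other strand, which had 15.2 and 17.3 TPM in knockout-labelled libraries and 19.0 and 16 TPM in WT. Mlxip, which encodes its partner MondoA, had 44.4 and 46.1 TPM in knockout-labelled libraries, against 43.7 and 45.4 TPM in WT (0.02, adjusted p = 0.75; its sign turned with 5 other settings). Mlxipl, which encodes the partner ChREBP, was at or below 0.3 TPM in all 4 libraries and was not tested.

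The order of levels was nearly the same in both groups. In knockout-labelled cells it ran Myc, Max, Mxd1, Mlx, Mxi1, Mxd4, Mnt, Mxd3, Mycn and Mycl, and the ranges of Mxd1 and Mlx overlapped. In WT cells Mlx stood before Mxd1, with ranges that did not overlap but lay within 1 TPM of each other (66.9 TPM for the lower Mlx value and 66.6 TPM for the higher Mxd1 value). No other neighbours in either order had ranges that overlapped. TPM are corrected for transcript length, so these levels can be compared between genes.

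Summed by role, the MYC paralogs reached 229 and 234 TPM in knockout-labelled cells, against 186 and 200 TPM in WT. The 5 repressors came to 193 and 192 TPM in knockout-labelled cells, against 198 and 203 TPM in WT. MYC paralogs thus outnumbered repressors in knockout-labelled cells, with ratios of 1.19 and 1.22, while the ratios were 0.94 and 0.99 in WT. Mxi1 held 24.0% and 23.9% of the repressor transcripts in knockout-labelled cells, and 27.7% and 27.2% in WT. These sums describe transcripts and carry no test, since they follow from members whose values are given above.

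**Figure D3:**
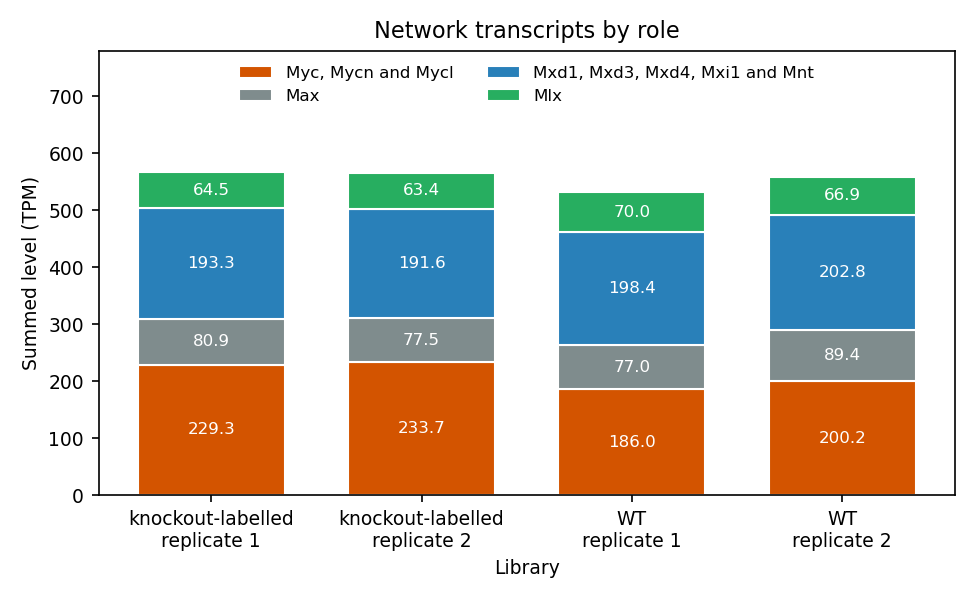
Summed level in TPM of the network's transcripts in each library, stacked by role, with knockout-labelled libraries on the left. The segment of Myc, Mycn and Mycl is taller in both knockout-labelled libraries (229 and 234 TPM) than in both WT libraries (186 and 200 TPM), while the repressor segment is between 192 and 203 TPM in all 4.

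The tested genes next to the called members were taken by RefSeq position within 500000 bases, after values had been seen, and none of the 4 passed in its neighbour's direction. Ddx1, a helicase gene and the next tested one to Mycn, had 82.4 and 80.2 TPM in knockout-labelled libraries, against 89.5 and 86.3 TPM in WT, and did not pass (-0.11, adjusted p = 0.081). Pvt1, the long noncoding RNA downstream of Myc, had 1.81 and 1.18 TPM in knockout-labelled libraries and 1.23 and 1.34 TPM in WT (0.12, adjusted p = 0.63). On the sides of Mxi1, Add3 rose by 0.17 on the log2 scale (adjusted p = 0.035), a call lost under 7 of the 15 settings, spike-in scaling (0.06, adjusted p = 0.59) and each fit without a knockout-labelled library among them. Smndc1 did not pass (-0.01, adjusted p = 0.84).

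The profiles most like Mycn over the 4 libraries, by distance between centred log2(TPM + 1) values, were those of Igfbp7 (distance 0.12), Mndal (0.12), Ifit3 (0.13), Dnajc6 (0.13) and Klrb1f (0.14). Ifit3 reached the filter through the knockout-labelled libraries alone (1.66 and 1.63 TPM, against 0.1 and 0.3 TPM in WT). Igfbp7, a secreted growth factor binding protein, had 21.3 and 21.4 TPM in knockout-labelled libraries and 8.03 and 8.97 TPM in WT. Mndal, of the interferon-inducible PYHIN family, had 62.2 and 59.7 TPM in knockout-labelled libraries and 26.1 and 27.7 TPM in WT. The profiles most like Mxi1 were those of Mfge8 (0.0036), Haus8 (0.0047), Cenpb (0.011), Lats2 (0.011) and Mpnd (0.013), with Mfge8, a secreted adaptor for apoptotic cell uptake, at 56.2 and 55.4 TPM in knockout-labelled libraries and 66.5 and 66.6 TPM in WT. With 4 libraries, likeness mostly follows the difference between the groups.

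Of 11 tested E-box factors outside the 10 members, 2 rose (18.2%), 1 fell (9.09%) and 8 did not pass. Over all genes 18.9% rose and 11.6% fell. The median log2 difference of the list was -0.01, beside 0.04 over all genes. The list was not limited to factors that bind CACGTG. Mga, whose protein binds MAX and joins a Polycomb complex, had 24.1 and 24.9 TPM in knockout-labelled libraries, against 19.6 and 19.9 TPM in WT (0.30, SE 0.047, adjusted p = 0.0086). That call was lost under 3 settings, spike-in scaling (adjusted p = 0.14) and each fit without a knockout-labelled library (adjusted p = 0.054 and 0.071). Tfap4, the AP4 factor known as a MYC target, rose to 24.3 ± 1.68 TPM in knockout-labelled cells, against 17.5 ± 0.27 TPM in WT (SD, n = 2; adjusted p = 0.0057). Tfec, of the MITF family and known from macrophages, fell to 45.5 ± 2.47 TPM in knockout-labelled cells, against 96.5 ± 2.33 TPM in WT (SD, n = 2; -1.07, adjusted p = 2.4e-04). Markers of monocytes, macrophages and dendritic cells also moved, with 12 of 21 tested lower and 3 higher. The summed level of all 24 was 9953 to 10090 TPM in knockout-labelled cells, against 15538 to 15776 TPM in WT, and none was at 0 in every library. Their part in the Tfec difference was not tested.

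Of 18 MYC coactivators and partners, 2 rose (11.1%, against 18.9% of all genes), 1 fell (5.56%, against 11.6%) and 15 did not pass. Their median was 0.08, or -0.03 with spike-in scaling. Ruvbl2, an ATPase of chromatin remodelling complexes, had 181 and 189 TPM in knockout-labelled libraries, against 165 and 158 TPM in WT (0.19, adjusted p = 0.017). Wdr5, which anchors MYC to chromatin, differed by 0.13 (adjusted p = 0.045), and Smarcb1, a SWI/SNF subunit, by -0.20 (adjusted p = 0.033). Ruvbl2 was lost under 4 of the 15 settings, Smarcb1 under 6 and Wdr5 under 9, with the highest adjusted p at 0.56 for Ruvbl2, 0.17 for Smarcb1 and 0.93 for Wdr5. Without WT replicate 2 the list had 7 higher genes, and without knockout-labelled replicate 1 limma called 0 in either direction, with 1 higher at an unadjusted p under 0.05. Without knockout-labelled replicate 2 it also called 0, with 3 higher and 1 lower at that unadjusted p. The SIN3 and NCOR corepressors are recruited by the MXD proteins and other repressors. Of 18 of their genes, 2 rose (11.1%, against 18.9% of all genes), 2 fell (11.1%, against 11.6%) and 14 did not pass. The median of this list was 0.08, or -0.03 with spike-in scaling. Ncor1 had 99.5 and 98.5 TPM in knockout-labelled libraries, against 80.0 and 85.6 TPM in WT (0.25, adjusted p = 0.011), and the histone deacetylase gene Hdac3 had 70.8 and 75.2 TPM in knockout-labelled libraries, against 81.4 and 82.8 TPM in WT (-0.17, adjusted p = 0.036). Ncor1 was lost under 3 settings and Hdac3 under 6, among them each fit without a knockout-labelled library (adjusted p from 0.077 to 0.20). Without either knockout-labelled library limma called 0 of the list, with 1 higher and 1 lower at an unadjusted p under 0.05 without replicate 1, and 3 higher and 2 lower without replicate 2.

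Of 18 tested genes that act on the stability or activity of the MYC protein, 3 rose and 15 did not pass. The share that rose was 16.7%, against 18.9% of all genes, and 0.0% fell, against 11.6%. Their median was 0.04 (-0.08 with spike-in scaling). Pim2 and Pim1 encode kinases known to phosphorylate MYC and to be induced by cytokine signalling. Pim2 had 37.7 and 38.1 TPM in knockout-labelled libraries, against 17.7 and 18.9 TPM in WT (1.01, SE 0.050, adjusted p = 2.8e-04). Pim1 had 548 and 567 TPM in knockout-labelled libraries, against 355 and 379 TPM in WT (0.60, SE 0.043, adjusted p = 7.8e-04). For both genes the gap between groups was several times the spread within them. Huwe1, a ubiquitin ligase for MYC, rose by 0.20 (adjusted p = 0.017), a call lost under 3 settings, spike-in scaling (0.08, adjusted p = 0.48) and each fit without a knockout-labelled library (0.086 and 0.12).

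Of 59 tested genes known to be activated by MYC, 9 rose (15.3%, against 18.9% of all genes), 4 fell (6.78%, against 11.6%) and 46 did not pass. Their median log2 difference was 0.03, beside 0.04 over all genes. Ccnd2, a D-type cyclin, had 220 and 217 TPM in knockout-labelled libraries, against 150 and 154 TPM in WT (0.52, adjusted p = 5.3e-04). Sord, the sorbitol dehydrogenase gene, had 70.8 and 72.3 TPM in knockout-labelled libraries, against 52.7 and 51.1 TPM in WT (0.46, adjusted p = 0.0013). Npm1, a nucleolar chaperone gene, had 1504 and 1452 TPM in knockout-labelled libraries, against 1151 and 1167 TPM in WT (0.35, adjusted p = 0.0020), or 0.23 with spike-in scaling (adjusted p = 0.11). Npm1 has processed copies in the genome, with which its reads may be shared. The 4 that fell are named after their values were seen. Bysl fell by 18.7%, Rrp12 fell by 15.6%, Mrto4 fell by 10.4% and the hexokinase gene Hk2 fell by 8.20%. Each of these 4 calls was lost under 5 to 7 of the 15 settings, with each fit without a knockout-labelled library among them. With trimmed-mean scaling 4 of the 59 were called higher and 7 lower, and with spike-in scaling 2 and 2. The spike-in fit gave the list a median of -0.08, beside -0.07 over all genes. At an unadjusted limma p under 0.05 that fit had 3 higher and 11 lower. The list had 3 higher and 0 lower without knockout-labelled replicate 1, and 4 and 0 without knockout-labelled replicate 2. At an unadjusted p under 0.05 limma gave 8 and 1 in the first of these fits, and 8 and 4 in the other. Without WT replicate 1 it had 5 and 0 (12 and 5 unadjusted), and without WT replicate 2, 7 and 2.

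Of 14 tested genes that MYC is known to repress, 7 rose (50.0%, against 18.9% of all genes), 3 fell (21.4%, against 11.6%) and 4 did not pass, with a median of 0.09 as deposited and -0.02 with spike-in scaling, where 1 rose and 3 fell. With trimmed-mean scaling 4 rose and 3 fell. Ndrg1, a stress-response gene, had 211 and 212 TPM in knockout-labelled libraries, against 162 and 163 TPM in WT (0.38, adjusted p = 0.0012; 0.050 with spike-in scaling, just past the threshold). The cyclin-dependent kinase inhibitor gene Cdkn1a, named after its values were seen, averaged 452 TPM in knockout-labelled cells, against 403 TPM in WT (adjusted p = 0.013), a call lost under 4 of the 15 settings. Gadd45a, a growth arrest gene, fell to 24.4 ± 1.24 TPM in knockout-labelled cells, against 36.2 ± 0.76 TPM in WT (SD, n = 2; -0.55, adjusted p = 0.0019). Without knockout-labelled replicate 1 or 2, 3 rose, while 2 and 1 fell.

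Of 10 tested targets of MondoA and ChREBP, the partners of MLX, 2 rose (20.0%), 1 fell (10.0%) and 7 did not pass. Over all genes 18.9% rose and 11.6% fell. The median of these targets was 0.11, or -0.0047 with spike-in scaling. Txnip, which restrains glucose uptake and is a well known MondoA target, had 842 and 834 TPM in knockout-labelled libraries, against 609 and 603 TPM in WT (0.47, SE 0.029, adjusted p = 5.3e-04). Arrdc3, an arrestin-domain gene, rose to 33.4 ± 0.68 TPM in knockout-labelled cells, against 25.0 ± 0.12 TPM in WT (SD, n = 2; adjusted p = 0.0027). Fasn, the fatty acid synthase gene, fell to 119 ± 3.25 TPM in knockout-labelled cells, against 135 ± 0.76 TPM in WT (SD, n = 2; -0.18, adjusted p = 0.016), a call lost under 3 of the 15 settings, each fit without a knockout-labelled library among them (0.13 and 0.073). Of the 18 markers of proliferation, 3 were called higher (16.7%, against 18.9% of all genes) and 2 lower (11.1%, against 11.6%). Their median was 0.02. Top2a, a topoisomerase gene and 1 of the 3 higher, had 353 and 349.6 TPM in knockout-labelled libraries, against 305 and 307 TPM in WT. The 2 lower ones were Rrm2 and Ccne1. Rrm2 had 168.01 and 167.75 TPM in knockout-labelled libraries, against 193 and 192.88 TPM in WT (limma adjusted p = 0.0075). Ccne1 had 20.1 and 21.3 TPM in knockout-labelled libraries, against 25.6 and 25.0 TPM in WT (limma adjusted p = 0.013). Without knockout-labelled replicate 1 limma called 0 proliferation markers, with 1 higher and 2 lower at an unadjusted p under 0.05. Without knockout-labelled replicate 2 it called 0, with 3 higher and 2 lower unadjusted, and with spike-in scaling 0 higher and 2 lower (0 and 3 unadjusted).

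**Figure D4:**
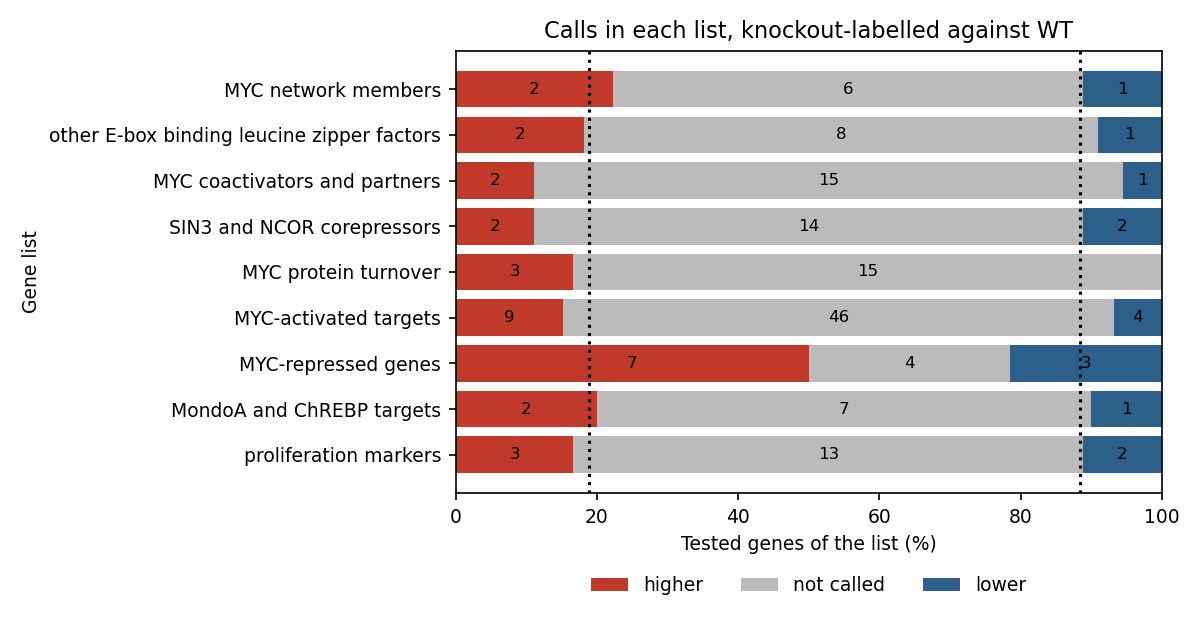
Share of the tested genes of each list that were higher (red), not called (grey) or lower (blue) in knockout-labelled cells, in percent, with the number of genes printed in each bar. The dotted lines mark the shares over all genes, 18.9% higher from the left and 11.6% lower from the right. The MYC-repressed list has 7 of 14 genes higher, and the network itself 2 of 9.

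Tet2 had 53.5 and 52.8 TPM in the knockout-labelled libraries, against 35.1 and 40.0 TPM in WT. It was called higher in the knockout-labelled group (log2 difference 0.50, SE 0.067, limma adjusted p = 0.0054), and under all 15 other settings. A value for the whole gene does not check a deletion of 3 exons, so every direction above goes by the labels. Of 12 identity genes of myeloid leukemia cells 11 passed the filter and Flt3 did not, with 5 called higher, 3 lower and 3 not called. Higher were, among others, Mpo (990 and 1037 TPM in knockout-labelled libraries, 731 and 758 TPM in WT) and Cd34 (270.2 and 266 TPM in knockout-labelled libraries, 189 and 199 TPM in WT). The lower ones were Spi1 (log2 difference -0.26), Cebpe (-0.59) and Cd33 (-0.22), transcription factors and a surface receptor of the myeloid lineage. The ERCC spike-ins held 3.41% and 3.39% of the TPM in knockout-labelled libraries, and 2.98% and 3.30% in WT. Of 12 tested markers of mast cells, basophils and eosinophils 2 rose and 8 fell, with a median log2 difference of -1.09. Ear2 and Tpsab1, both among the 8, passed the filter through the WT libraries alone, and with a filter at 5 TPM 6 of 10 fell. The summed level of all 19 listed was 2166 to 2229 TPM in knockout-labelled cells, against 2083 to 2169 TPM in WT. Most of that sum was Cpa3, which rose, and without it the sums were 559.8 to 562 TPM in knockout-labelled cells, against 781 to 803 TPM in WT. Of 9 tested erythroid and megakaryocyte markers 3 rose and 3 fell, and all 19 listed summed to 397 to 410.4 TPM in knockout-labelled cells, against 314 to 321 TPM in WT. Without Hbb-bt, the most abundant of them, the sums were 194.86 to 195.43 TPM in knockout-labelled cells, against 184.67 to 185.1 TPM in WT. Of 5 tested lymphoid markers 3 rose and 1 fell, and all 18 listed summed to 175 to 176 TPM in knockout-labelled cells, against 107 to 110.3 TPM in WT. Thy1, which rose, made up most of this sum. Without Thy1 the sums were 33.55 to 34.09 TPM in knockout-labelled cells, against 25.93 to 28.31 TPM in WT. Of 3 tested stromal and endothelial markers 1 rose and 2 fell. All 14 listed summed to 345 TPM in both knockout-labelled libraries, against 427 to 439 TPM in WT. Pecam1, which fell, made up most of that sum. Without it the direction turned, with 11.95 to 12.2 TPM in knockout-labelled cells, against 10.03 to 10.56 TPM in WT. Most of that remainder was Pdgfrb, the 1 that rose, which is also in the MYC-repressed list. Pdgfrb had 8.65 and 8.72 TPM in knockout-labelled libraries, against 5.92 and 5.93 TPM in WT. The globin gene Hbb-bs and the lymphoid markers Cd3e, Ms4a1, Ncr1, Gzma, Rag1 and Rag2, were listed at 0 in all 4 libraries. The part of these markers in the network's differences was not tested.

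**Figure D5:**
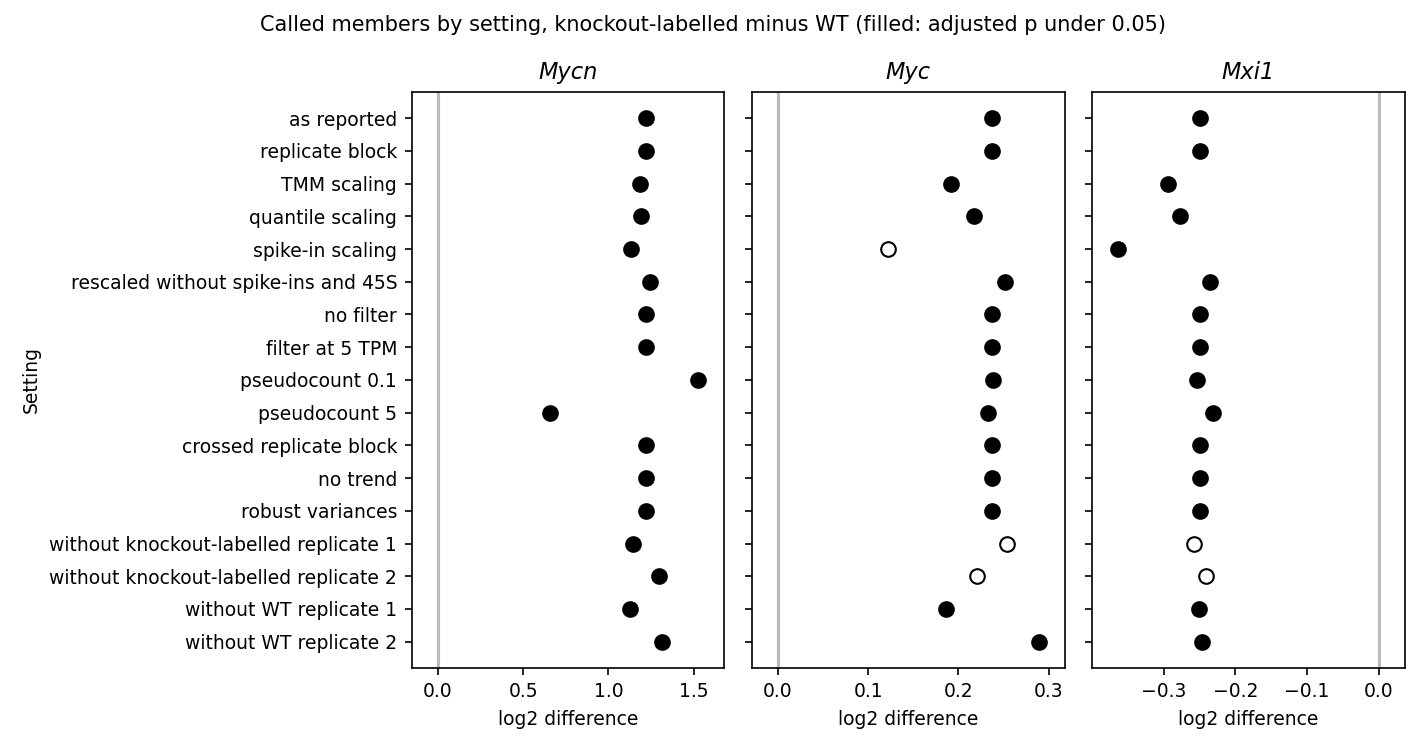
Log2 difference of the 3 called members, knockout-labelled minus WT, as reported and under each alternative setting, with filled points where the adjusted p was under 0.05. Each panel has its own horizontal axis. Mycn is filled throughout, from 0.66 with a pseudocount of 5 to 1.53 with a pseudocount of 0.1, Myc is open with spike-in scaling and without either knockout-labelled library, and Mxi1 is open without either knockout-labelled library.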

How the data were processed

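The authors deposited a single table of TPM for the 4 libraries. The unit was read from the values, since each column sums to 1000000. The submitters' processing notes name STAR, RSEM and mm10, while versions, annotation and strand setting are not given in the sources used here. TPM keep no depth, so reads per library are unknown and no counting interval is given.

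The 92 spike-in entries were left out, and the 11837 entries that reached 1 TPM in 2 or more libraries were kept. Values were compared as log2(TPM + 1) with limma 3.58.1 in R 4.3.3, with a trended prior variance and the group as the only term. Adjusted p are Benjamini-Hochberg over all kept entries. An exact permutation test of 2 against 2 cannot go below p = 0.333. Intervals of 95% use limma's standard error with 2 residual and 3.51 prior degrees of freedom. The fit was tested on simulated data, with shifts larger than the differences of Myc and Mxi1, so calls of that size were left untested. The 15 other settings were the replicate number as a block, 4 other scalings, 2 filters, 2 pseudocounts, 2 variance models and leaving out each library. Trimmed-mean scaling used own code for the TMM formula. The 27 gene names turned into dates were not named.

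The members and lists were chosen with earlier results of these data known. Named were all members, Tet2, and the 5 profiles nearest to the member with the smallest p in each direction. From other lists, genes were named from among the 4 with the smallest p. Some of those 4 were passed over, such as Brms1 and Itgal. Top2a, Mlxip, Mpo, Spi1, Cebpe, Cd33, Cpa3, Ear2, Tpsab1, Cd34, Rn45s and the neighbouring genes were named after their values were seen. So were Rrm2, Ccne1, Pecam1, Thy1 and Hbb-bt. In all, 1 list gene was matched by an older symbol. Same-numbered libraries did not deviate together (correlation of deviations -0.11). Coordinates are from GENCODE M21 on GRCm38, start windows from RefSeq.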

Additional observations from a re-analysis of the deposited data

How the results depend on the processing

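Of the 10 members 2 were called higher and 1 lower, also with the replicate block, trimmed-mean and quantile scaling, rescaling without the spike-ins and 45S RNA, both other filters, both other pseudocounts, no trend and robust variances. With spike-in scaling 1 was higher. Leaving out each library in turn gave 1 to 2 higher and 0 to 1 lower, where the lone library of a group is assumed to vary like the other group. Without knockout-labelled replicate 1, limma at an unadjusted p under 0.05 gave 3 higher and 1 lower. Without replicate 2 it gave 2 higher and 1 lower. At the adjusted threshold those 2 fits called 10.6% and 11.0% of all entries. The cause was not tested. The replicate numbers share no stated origin. Over all entries the block gave 1888 higher and 1183 lower calls, against 2237 and 1369 without it. Crossed pairing, chosen after seeing the data, gave 2136 and 1327. Spike-in scaling gave 631 and 1477, and the fits without knockout-labelled replicates 637 and 602, and 628 and 660. Of all calls 62.0% were higher as deposited, 48.2% with trimmed-mean, 29.9% with spike-in scaling, and 51.4% and 48.8% without knockout-labelled replicates 1 and 2. Differences that changed sign were all uncalled. Leaving out 1 library, the differences ranged from -0.17 to 0.040 for Max, -0.047 to 0.024 for Mxd1, -0.084 to 0.057 for Mxd4, -0.0061 to 0.047 for Mlxip, -0.067 to 0.30 for Pvt1, -0.030 to 0.0073 for Smndc1 and -0.22 to 0.018 for Psmc3ip. Rescaling without spike-ins and 45S RNA gave 0.0019 for Mxd1 and 0.0020 for Smndc1. Spike-in scaling gave -0.0026 for Mnt, -0.010 for Srebf2, -0.093 for Mlxip and -0.087 for Prelid1. Trimmed-mean and quantile scaling gave -0.024 and -0.0068 for Mlxip, and -0.017 and -0.021 for Prelid1. Read depth is unknown, so what it limits cannot be stated.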

Other observations

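The 45S pre-ribosomal RNA entry Rn45s was listed at 14263 and 8813 TPM in the knockout-labelled libraries, against 5704 and 4350 TPM in WT. Whether this value follows the synthesis of ribosomal RNA or how much of it was left in each library was not tested. Its groups did not overlap, and its log2 difference was 1.17 (SE 0.24, adjusted p = 0.019). The spread within each group was wide, with SDs of 3854 TPM in knockout-labelled cells and 958 TPM in WT. The call was lost under 5 of the 15 settings, among them without knockout-labelled replicate 1 and without WT replicate 2.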
